A study of Homo sapiens with 4 samples.

Results

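The genes of the nuclear RNA polymerases were examined in KYSE410 cells, an established human line of esophageal squamous carcinoma. Every probe set whose annotation held exactly 1 gene symbol, and whose symbol began with POLR1, POLR2 or POLR3 followed by a letter, was taken. This gave 75 of 54613 non-control probe sets, for 32 genes. Of these 32 symbols, 29 belong to core subunits, 2 (POLR2J2 and POLR2J4) to close copies of the subunit gene POLR2J, and 1 (POLR1HASP) to a transcribed pseudogene antisense to POLR1H. Cells treated with 20 nM YM155 for 6 h (2 arrays) were compared with untreated cells (2 arrays). The compound YM155 is known for lowering survivin, an inhibitor of apoptosis. Cisplatin is named in its place by the treatment protocol and beside it in the design text. The treatment label and source name of each treated sample give YM155 and were followed. The untreated samples were identified by their titles.

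Cells transcribe their nuclear genes with 3 multi-subunit RNA polymerases. RNA polymerase I (Pol I) makes the precursor of the large ribosomal RNAs in the nucleolus. RNA polymerase II (Pol II) makes messenger RNAs and many noncoding RNAs, and RNA polymerase III (Pol III) makes tRNAs, 5S ribosomal RNA and other short RNAs. Each enzyme has its own pair of large catalytic subunits, and several small subunits are shared among them. Growing tumour cells are known for high Pol I and Pol III output, which feeds ribosome production.

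Values are log2 of the deposited microarray intensities, and each gene is given by its probe set of highest mean unless another is named. The arrays had been set to a common distribution, so a difference is set against the rest of the genes, and a shift shared by all genes was not measured. The array averages a whole culture, so fewer cells with a transcript and less of it per cell cannot be told apart. All 6 squamous markers with a probe set passed the filter on low values, from SOX2 (5.48 and 5.64 log2 in YM155 arrays, 6.74 and 4.87 in untreated arrays) to SFN (13.15 and 13.19 in YM155 arrays, 12.25 and 12.74 in untreated arrays). Their summed intensity, of which SFN is the largest part, was 14210 to 14225 in YM155 arrays and 9168 to 10522 in untreated arrays. Of the markers of other cell types, 2 of 5 fibroblast, 2 of 4 leukocyte, 2 of 4 endothelial and 2 of 5 glandular genes passed the filter's limit of 3.32 log2. The highest of these was COL1A1, at up to 6.24, while the leukocyte marker PTPRC lay between 2.05 and 2.18. Of 32768 probe sets, 56 lay at least 2-fold apart between the YM155 arrays, and 1690 between the untreated ones. Against the YM155 arrays, 739 and 850 probe sets lay that far apart for untreated replicate 1, and 1811 and 2140 for untreated replicate 2. Untreated replicate 2 thus stood apart from the rest, and differences are also given against each untreated array alone where it matters. The log2 ratio of 3' over 5' signal of ACTB, a sign of RNA integrity, was 2.10 and 2.95 in YM155 arrays and 2.72 and 2.18 in untreated arrays. The same ratio of GAPDH was near 0, at 0.033 and 0.21 in YM155 arrays and 0.042 and 0.043 in untreated arrays. The part of RNA integrity in the results was not tested.

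No RNA polymerase gene passed the adjusted threshold. By limma with Benjamini-Hochberg adjustment, 0 of 32 genes had an adjusted p under 0.05, where 0 of 14043 genes (0%) did over the whole array, and the smallest adjusted p of any gene was 0.163. At an unadjusted p under 0.05, POLR1F, POLR1G and POLR2C were higher (9.38% of the 32 genes, against 5.23% of all genes). By the same measure POLR1HASP alone was lower (3.13%, against 7.48%). Both YM155 arrays lay above both untreated arrays for 9 of 32 genes (28.1%, against 19.3% of all genes). They lay below them for 6 of 32 (18.8%, against 25.6%). The 29 core subunits had 19 positive and 10 negative differences, with a median difference of 0.057 log2. Over all genes tested the median was −0.015, and 47.1% were positive.

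**Figure D1:**
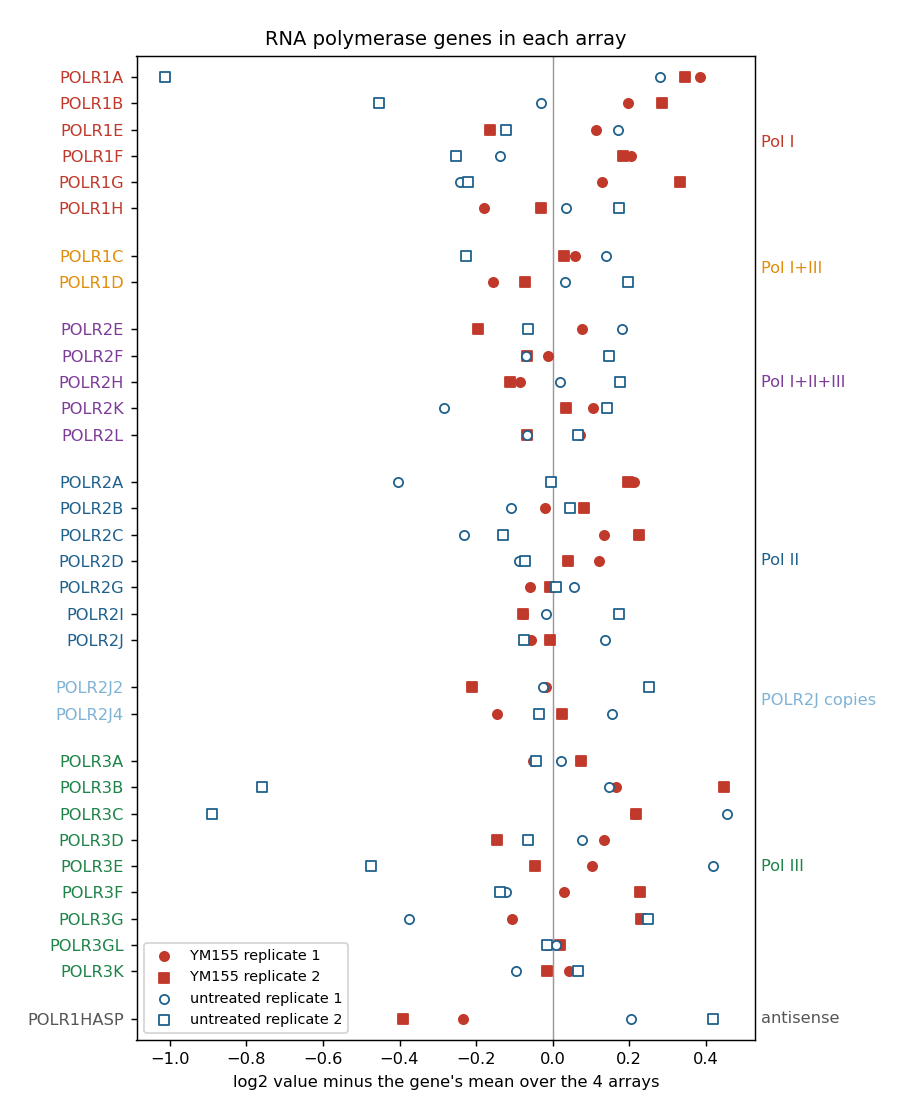
Log2 value of each of the 32 RNA polymerase genes in the 4 arrays, as the distance from that gene's mean over the arrays. Filled red symbols are YM155 arrays and open blue symbols untreated arrays (circles replicate 1, squares replicate 2). Untreated replicate 2 lies far to the left for POLR1A, POLR3B, POLR3C and POLR3E, while for POLR1F, POLR1G and POLR2C both untreated arrays lie left of both YM155 arrays.

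The promoters shown are those of the 5 core subunit genes with the smallest unadjusted p among those with an entry, since their differences were largest relative to their error. Each is the 250 bases before the annotated start, 5′ to 3′, from RefSeq (GRCh38.p14), and 23 of the 32 genes had an entry. POLR1B has 2 annotated starts, of which the upstream one is shown. Capitals mark matches on either strand to 5 motifs: the E-box CACGTG, the ETS core CCGGAA, the GC box GGGCGG, the NRF1 core CGCATGCG and the TATA box TATAAA.

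POLR1G, chr19:45406394-45406643, plus strand: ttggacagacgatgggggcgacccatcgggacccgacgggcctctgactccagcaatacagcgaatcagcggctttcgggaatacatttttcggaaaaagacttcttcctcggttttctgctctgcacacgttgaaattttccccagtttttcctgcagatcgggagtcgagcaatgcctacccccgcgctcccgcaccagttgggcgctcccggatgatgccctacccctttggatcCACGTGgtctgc

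POLR1F, chr7:19709038-19709287, minus strand: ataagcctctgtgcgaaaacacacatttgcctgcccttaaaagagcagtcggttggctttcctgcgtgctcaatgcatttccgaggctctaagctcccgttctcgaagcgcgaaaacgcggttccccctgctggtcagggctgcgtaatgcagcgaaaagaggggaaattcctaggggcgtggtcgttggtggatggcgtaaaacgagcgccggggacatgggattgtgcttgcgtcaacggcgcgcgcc

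POLR2C, chr16:57462429-57462678, plus strand: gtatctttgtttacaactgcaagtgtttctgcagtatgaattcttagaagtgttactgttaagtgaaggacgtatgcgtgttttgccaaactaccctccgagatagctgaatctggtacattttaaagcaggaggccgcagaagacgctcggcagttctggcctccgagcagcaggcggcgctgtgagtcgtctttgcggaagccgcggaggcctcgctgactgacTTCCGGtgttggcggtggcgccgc

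POLR1B, chr2:112541786-112542035, plus strand: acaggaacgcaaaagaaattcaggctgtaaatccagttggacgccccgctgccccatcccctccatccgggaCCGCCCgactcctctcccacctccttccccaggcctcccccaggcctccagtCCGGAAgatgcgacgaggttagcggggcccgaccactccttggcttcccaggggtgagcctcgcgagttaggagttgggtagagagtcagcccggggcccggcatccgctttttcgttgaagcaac

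POLR2A, chr17:7484116-7484365, plus strand: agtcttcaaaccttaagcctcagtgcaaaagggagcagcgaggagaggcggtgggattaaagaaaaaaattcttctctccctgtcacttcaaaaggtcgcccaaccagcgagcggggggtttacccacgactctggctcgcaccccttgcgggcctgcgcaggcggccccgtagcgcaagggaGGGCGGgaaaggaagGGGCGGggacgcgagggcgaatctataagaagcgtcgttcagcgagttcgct

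The POLR1G window held 1 E-box, POLR2C 1 ETS core, POLR1B 1 GC box and 1 ETS core, POLR2A 2 GC boxes, and POLR1F none of the 5 motifs. Over the 29 start windows of the 23 genes, the ETS core was found in 11 (37.9%), against 14.5% of 35116 windows in the whole table. The GC box was found in 20 (69.0%, against 42.6%) and the NRF1 core in 5 (17.2%, against 1.73%), in POLR2F, POLR2H, POLR2J2 and POLR3B. The E-box was found in 3 (10.3%, against 6.34%), in POLR1G, POLR3A and POLR3C. The TATA box was found in 0 windows, against 10.7%. For 13 of the 23 genes (56.5%) another gene started on the opposite strand within 500 bases, against 21.1% of all genes in the table. Windows of 1 gene can overlap, and a match describes letters only.

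Pol I showed the largest median of the enzymes, carried by 4 of its 6 specific subunits. POLR1A, the largest catalytic subunit, stood at 6.83 and 6.79 log2 in YM155 arrays and at 6.72 and 5.43 in untreated arrays. POLR1B, the second large subunit, which completes the active centre, stood at 9.49 and 9.58 in YM155 arrays and at 9.27 and 8.84 in untreated arrays. For both genes the YM155 arrays lay above the untreated ones, but untreated replicate 2 was the array that stood apart. The difference was 0.73 ± 0.44 log2 for POLR1A (SE, n = 2 each; limma adjusted p = 0.568) and 0.48 ± 0.19 for POLR1B (limma adjusted p = 0.398). Against untreated replicate 1 alone these became 0.084 for POLR1A and 0.27 for POLR1B.

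POLR1F and POLR1G differed by similar amounts whichever untreated array was used. POLR1F is a stalk subunit through which, in yeast, Pol I contacts its initiation factor Rrn3. It read 8.68 and 8.66 log2 in YM155 arrays, against 8.34 and 8.23 in untreated arrays. POLR1G, which pairs with POLR1E in a module related to the Pol II factor TFIIF, read 7.83 and 8.04 in YM155 arrays, against 7.46 and 7.48 in untreated arrays. In neither gene did the groups overlap. The differences were 0.39 ± 0.13 for POLR1F (SE; 95% interval 0.057 to 0.72; limma adjusted p = 0.335) and 0.46 ± 0.14 for POLR1G (0.10 to 0.83; limma adjusted p = 0.314), or 1.31-fold and 1.38-fold. A second probe set of POLR1F, at 4.72 to 5.22 log2, gave −0.037.

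The other specific Pol I subunits did not share this direction. POLR1E, the partner of POLR1G, read 7.76 and 7.48 log2 in YM155 arrays and 7.82 and 7.53 in untreated arrays. These values overlapped (difference −0.051 ± 0.18 SE), and a dimmer probe set of POLR1E gave 0.49. POLR1H, the subunit that assists RNA cleavage, read 10.33 and 10.48 in YM155 arrays and 10.55 and 10.69 in untreated arrays. Its YM155 arrays lay just below the untreated ones, at −0.21 ± 0.14 (SE; limma adjusted p = 0.598).

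**Figure D2:**
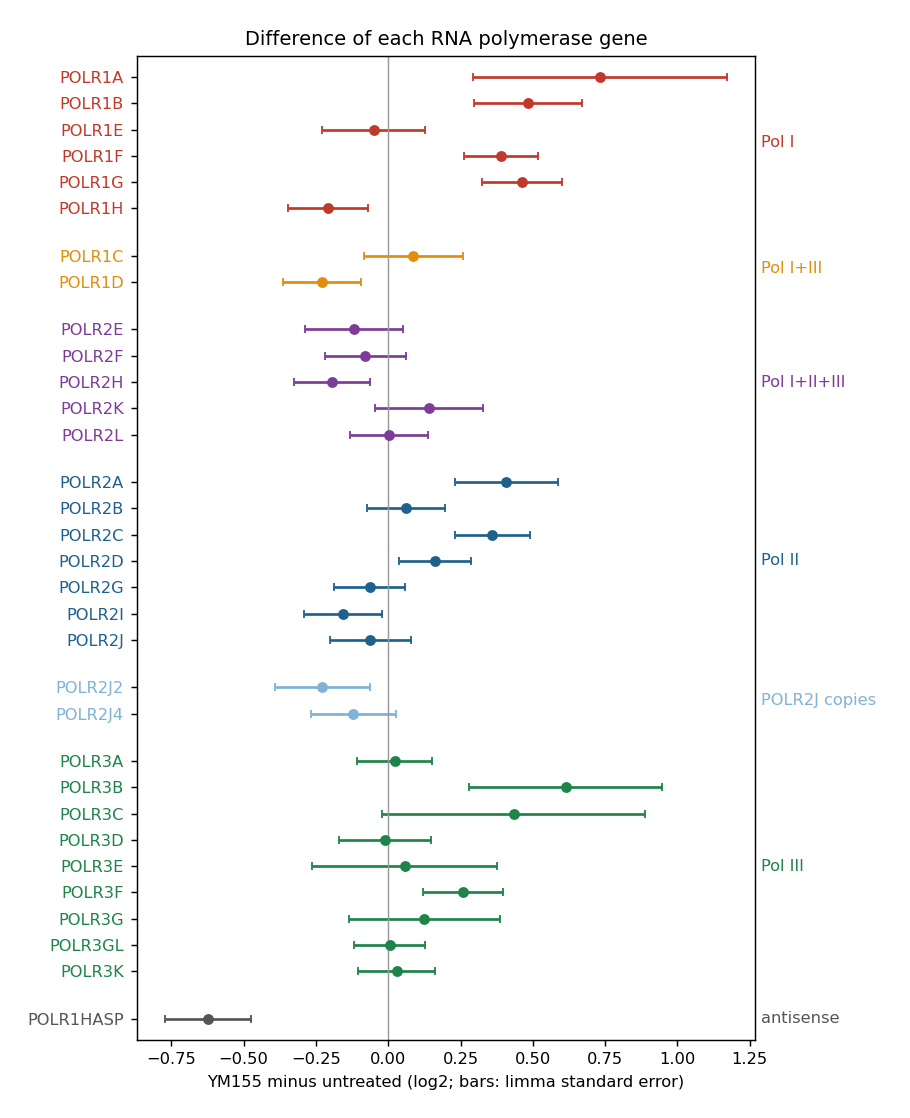
YM155 minus untreated difference of each RNA polymerase gene on the log2 scale, with the standard error from limma as bars (2 arrays per group), grouped by the enzyme that holds the subunit. POLR1B, POLR1F and POLR1G lie between 0.39 and 0.48, the shared subunits between −0.23 and 0.14, and POLR1HASP at −0.62.

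The subunits that Pol I and Pol III share form a dimer on which these enzymes assemble, and variants of both genes are known from Treacher Collins syndrome. POLR1D, the smaller partner, read 11.52 and 11.61 log2 in YM155 arrays and 11.71 and 11.88 in untreated arrays. Its arrays did not overlap, at −0.23 ± 0.14 (SE; limma adjusted p = 0.562), and its 3 probe sets lay between −0.23 and −0.024. POLR1C read 7.93 and 7.91 in YM155 arrays and 8.02 and 7.65 in untreated arrays. These groups overlapped, and both POLR1C probe sets gave 0.088 or 0.087.

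The 5 small subunits common to all 3 enzymes had a median difference of −0.079 log2, with 2 positive and 3 negative. POLR2H, which lies on the outer face of the enzyme, read 11.14 and 11.12 in YM155 arrays and 11.24 and 11.40 in untreated arrays. It was the member of this group whose arrays did not overlap, at −0.19 ± 0.13 (SE; 95% interval −0.54 to 0.15). POLR2E gave −0.12 ± 0.17, POLR2F −0.079 ± 0.14, POLR2L 0.0025 ± 0.14 and POLR2K 0.14 ± 0.19 (SE). The second probe sets of POLR2K (0.54), POLR2L (0.52), POLR2E (−0.47) and POLR2F (−0.20) lay farther from 0. In those of POLR2K, POLR2L and POLR2E the groups did not overlap, although in POLR2K the closest arrays read 8.15 (YM155) and 8.13 (untreated).

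In Pol II the largest subunit stood higher, and the differences of the other subunits lay between −0.16 and 0.36 log2. POLR2A, whose repeated C-terminal tail recruits RNA processing factors, read 9.87 and 9.85 log2 in YM155 arrays and 9.25 and 9.65 in untreated arrays. The groups did not overlap, at 0.41 ± 0.18 (SE; limma adjusted p = 0.440). The difference was 0.61 against untreated replicate 1 alone and 0.21 against untreated replicate 2 alone. A second POLR2A probe set, at 3.88 to 4.75, gave 0.032 with overlapping arrays. Here untreated replicate 1 was the lower of the untreated arrays, the reverse of POLR1A and POLR1B. The second large subunit, POLR2B, read 10.28 and 10.38 in YM155 arrays and 10.19 and 10.34 in untreated arrays, with a difference of 0.063 ± 0.13 (SE; 95% interval −0.29 to 0.42).

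POLR2C and POLR2J are the Pol II counterparts of the POLR1C and POLR1D dimer. POLR2C read 10.45 and 10.55 log2 in YM155 arrays and 10.09 and 10.19 in untreated arrays. Its difference was 0.36 ± 0.13 (SE; limma adjusted p = 0.367). That probe set carries the _x_at suffix, which marks probes that can bind other transcripts. Another POLR2C probe set, whose _s_at suffix marks probes shared by several transcripts, read 9.85 and 9.60 in YM155 arrays and 9.72 and 9.76 in untreated arrays, and gave −0.010. The dimmest POLR2C probe set, also _x_at, gave 0.15 without overlap, so the POLR2C probe sets ranged from −0.010 to 0.36.

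POLR2J gave −0.063 ± 0.14 (SE), also from an _x_at probe set, as is that of POLR1H. POLR2D and POLR2G form the stalk of Pol II. POLR2D read 8.89 and 8.81 in YM155 arrays and 8.68 and 8.70 in untreated arrays (0.16 ± 0.12 SE), and POLR2G gave −0.064 ± 0.12 (SE). POLR2I, a subunit linked to fidelity of transcription in yeast, gave −0.16 ± 0.14 (SE).

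In Pol III, POLR3B, POLR3C and POLR3E had untreated arrays that lay far apart. POLR3B, the second large subunit, read 8.24 and 8.52 log2 in YM155 arrays and 8.22 and 7.32 in untreated arrays. POLR3C, of the subcomplex that opens the promoter, read 8.32 and 8.32 in YM155 arrays and 8.56 and 7.21 in untreated arrays. POLR3E, a partner of POLR3D in the module related to TFIIF, read 8.86 and 8.71 in YM155 arrays and 9.17 and 8.28 in untreated arrays. In all 3 genes untreated replicate 2 was the lowest of the 4 arrays. Their differences were 0.61 ± 0.33 for POLR3B, 0.43 ± 0.46 for POLR3C and 0.057 ± 0.32 for POLR3E (SE; limma adjusted p between 0.528 and 0.969). Against untreated replicate 1 alone, POLR3B gave 0.16, POLR3C −0.24 and POLR3E −0.39. A dimmer POLR3E probe set gave 0.57 ± 0.27 (SE) without overlap, and 0.28 against untreated replicate 1 alone, and the remaining pair gave 0.077 and 0.15.

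POLR3F, which belongs to the same initiation subcomplex as POLR3C, had untreated arrays that nearly coincided, while its YM155 arrays lay 0.20 log2 apart. It read 6.14 and 6.33 log2 in YM155 arrays and 5.99 and 5.97 in untreated arrays, without overlap (0.26 ± 0.14 SE; limma adjusted p = 0.522). The largest subunit, POLR3A, gave 0.022 ± 0.13 (SE; 95% interval −0.32 to 0.36). POLR3D gave −0.011 ± 0.16 and POLR3K, which acts in cleavage and termination, 0.029 ± 0.13 (SE).

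POLR3G and POLR3GL are alternative forms of 1 Pol III subunit, of which POLR3G is known from stem and tumour cells and POLR3GL from differentiated ones. POLR3GL read 7.78 and 7.81 log2 in YM155 arrays and 7.80 and 7.78 in untreated arrays. POLR3G read 6.57 and 6.91 in YM155 arrays and 6.31 and 6.93 in untreated arrays. The POLR3GL arrays nearly coincided (0.0049 ± 0.12 SE; 95% interval −0.31 to 0.32), whereas the POLR3G arrays were spread within both groups (0.12 ± 0.26 SE). Another POLR3G probe set gave −0.22.

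The member with the smallest adjusted p was not a subunit gene. POLR1HASP read 5.57 and 5.42 log2 in YM155 arrays and 6.01 and 6.23 in untreated arrays. This gave −0.62 ± 0.15 (SE; 0.649-fold; limma adjusted p = 0.249). A dimmer POLR1HASP probe set read 3.64 and 3.60 in YM155 arrays and 4.77 and 4.56 in untreated arrays. It gave −1.04 ± 0.15 (SE; 0.485-fold; limma adjusted p = 0.235 over 32768 probe sets), with YM155 values close to the filter's limit, so the size of this difference is not exact. In both probe sets the YM155 arrays lay below both untreated arrays, and POLR1H itself differed by −0.21. The remaining POLR1HASP probe set, below the filter, gave −0.035. Further probe sets were annotated with both HCG8 (listed by RefSeq as an older name of POLR1HASP) and POLR1HASP. The brightest of these gave −0.57, with YM155 replicate 1 at 3.11, under the filter's limit. Those below the filter gave −0.20 and −0.17. All were picked out after their values were seen.

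The copies of POLR2J cannot be separated cleanly, because their sequences are close to each other and to POLR2J. POLR2J2 gave −0.23 ± 0.16 and the transcribed pseudogene POLR2J4 −0.12 ± 0.15 (SE), with overlapping arrays in both. A dim POLR2J4 probe set read 3.53 and 3.71 log2 in YM155 arrays and 3.98 and 4.21 in untreated arrays (−0.48 ± 0.16 SE). Probe sets annotated with several of these genes named none of them. Those past the filter lay between −0.69 and −0.11. POLR2M, a Pol II-associated factor, was likewise covered only by probe sets with several symbols, whose differences past the filter were −0.39, 0.051 and 0.073.

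Side by side, the median difference was 0.43 log2 over 6 Pol I subunits, 0.063 over 7 Pol II subunits, 0.057 over 9 Pol III subunits and −0.079 over the 5 subunits common to all. For all genes it was −0.015. Differences were positive in 4 of 6 Pol I, 4 of 7 Pol II, 8 of 9 Pol III and 2 of 5 common subunits (47.1% of all genes). In the same order, they were positive in 4, 4, 4 and 3 against untreated replicate 1 alone (5866 of 14043 genes). With untreated replicate 2 alone, 5, 4, 7 and 1 were positive (7156 of 14043 genes). The arrays did not overlap, with YM155 higher, in 4 Pol I, 3 Pol II, 2 Pol III and 0 common subunits (19.3% of all genes). They did not overlap, with YM155 lower, in 1 Pol I, 2 Pol II, 0 Pol III and 1 common subunit (25.6% of all genes). The differences between these groups of subunits were not tested. Against untreated replicate 1 alone, the medians were 0.18 for Pol I, 0.14 for Pol II, −0.0063 for Pol III and 0.030 for the common subunits. Against untreated replicate 2 alone they were 0.45, 0.043, 0.060 and −0.072 in the same order. The Pol I and Pol II medians were thus positive against either untreated array, while those of Pol III and of the common subunits changed sign. The Pol II value of 0.043 was smaller than the spread of that median between replicates (SD 0.071). Over all genes the median was −0.050 against untreated replicate 1 and 0.0075 against untreated replicate 2.

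**Figure D3:**
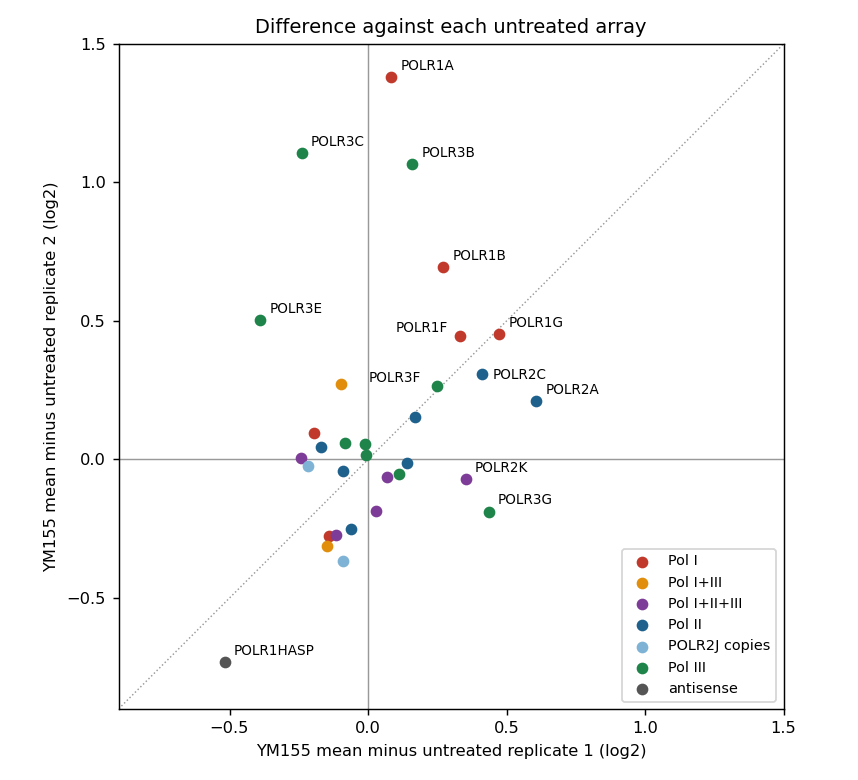
Difference of the YM155 mean from untreated replicate 1 (horizontal) and from untreated replicate 2 (vertical), in log2, for the 32 genes coloured by enzyme, where the dotted line marks equal differences. POLR1G (0.47 and 0.45) lies close to the line and POLR1F (0.33 and 0.45) and POLR2C (0.41 and 0.31) near it, while POLR1A (0.084 and 1.38), POLR3B and POLR3C lie far above it.

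Among the 32 genes, the widest gaps between the untreated arrays were in POLR1A, POLR3C, POLR3B and POLR3E. The arrays were at least 2-fold apart for POLR1A (−1.30 log2, replicate 2 minus replicate 1) and POLR3C (−1.35), or 2 of 32 genes (6.25%), against 4.39% of all genes. The gap was −0.91 for POLR3B and −0.89 for POLR3E. Untreated replicate 2 was the lowest of the 4 arrays in 3 of 6 Pol I, 5 of 9 Pol III, 1 of 7 Pol II and 0 of 5 common subunits, against 34.3% of all genes. Without untreated replicate 1, POLR1A (1.38) and POLR3C (1.11) passed in the gene fit (limma adjusted p = 0.0407 for both), as did 4.3% of all genes in the higher direction. That fit takes the spread of the single remaining untreated array to be that of the treated ones. Tested over all probe sets in the same setting, 0 passed, with a smallest adjusted p of 0.0633. With any other single array left out, 0 genes passed.

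Of the 75 probe sets, 62 passed the filter, with 36 positive and 26 negative differences and a median of 0.038 log2, against −0.016 over 32768 probe sets. At an unadjusted p under 0.05, 3 were higher (against 5.03% of all probe sets) and 3 were lower (against 6.06%), and 0 passed the adjusted threshold by limma. Of 21 genes with at least 2 probe sets past the filter, 16 had differences of 1 sign. POLR1A had 3 probe sets between 0.29 and 0.73 and POLR1B had 4 between 0.42 and 0.86. Against untreated replicate 1 alone, they lay between −0.20 and 0.084 for POLR1A and between −0.016 and 0.27 for POLR1B. The probe sets of POLR3C (0.37 and 0.43) and POLR3A (0.022 and 0.043) were close together. The POLR3C pair gave −0.24 and −0.38 against untreated replicate 1 alone. The 5 genes with both signs were POLR1E, POLR1F, POLR2B, POLR2C and POLR3G.

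**Figure D4:**
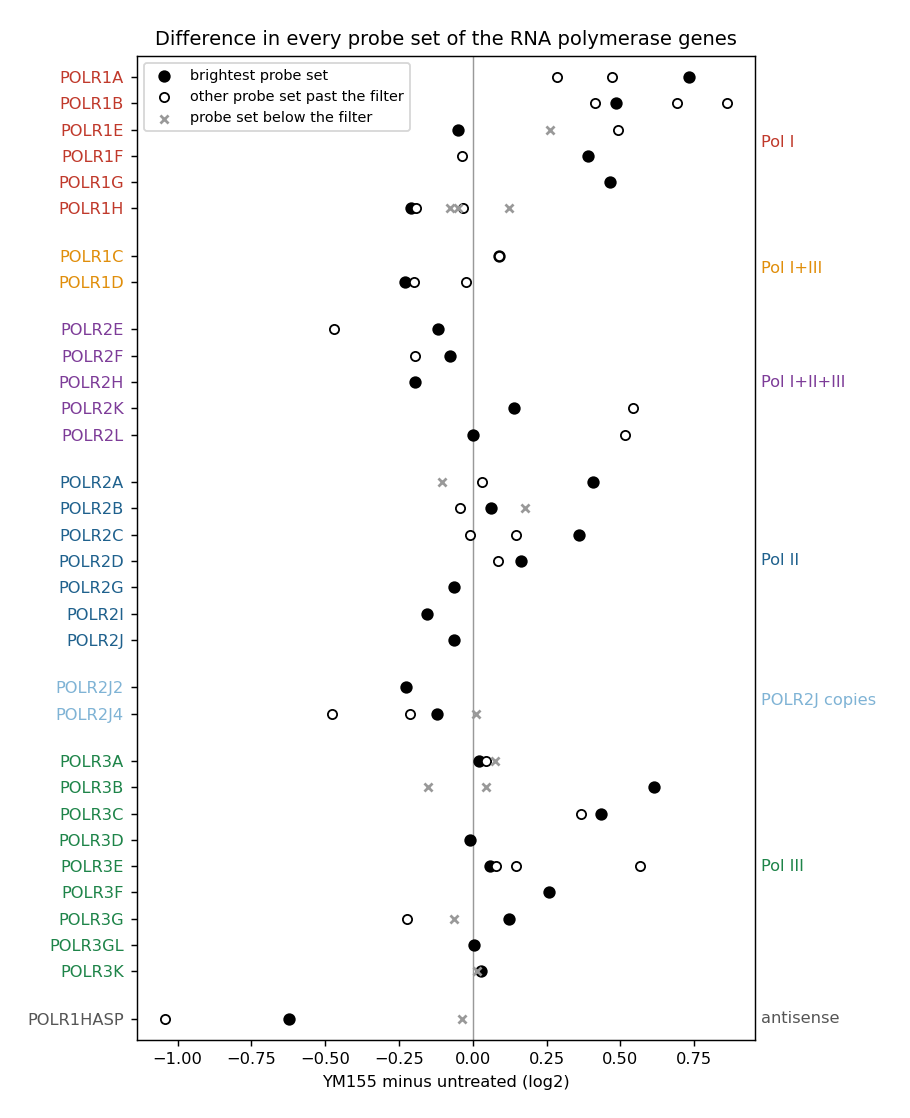
YM155 minus untreated difference (log2) of all 75 probe sets of the 32 genes. Black circles are the brightest probe set of a gene, open circles other probe sets past the filter and grey crosses those below it. All probe sets of POLR1A and POLR1B lie above 0, and those of POLR1E, POLR2C and POLR3G fall on both sides.

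Factors that work with the polymerases were described from lists, with the 2 largest absolute differences of each list named. Of 7 Pol I factors (initiation factors and the termination factor TTF1), 6 had positive differences, with a median of 0.24 log2. RRN3, which brings Pol I to its promoter, read 7.84 and 7.77 in YM155 arrays and 7.42 and 6.86 in untreated arrays (0.67 ± 0.22 SE). RRN3 has near-identical pseudogene copies, so its probe set is uncertain. TAF1D, a subunit of the promoter selectivity factor SL1, read 9.15 and 9.04 in YM155 arrays and 7.81 and 8.78 in untreated arrays (0.81 ± 0.34 SE). Both factors lay above both untreated arrays, with the untreated arrays well apart.

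Of 29 Pol II general initiation factors tested, 16 had positive and 13 negative differences, with a median of 0.032. The TFIID subunit TAF5 averaged 7.13 ± 0.13 in YM155 arrays and 8.18 ± 0.25 in untreated arrays (SD, n = 2 each), a difference of −1.04 ± 0.18 (SE; limma adjusted p = 0.197) with no overlap. Another TFIID subunit, TAF13, went the other way, at 9.46 and 10.03 in YM155 arrays and 8.81 and 8.93 in untreated arrays (0.88 ± 0.22 SE; limma adjusted p = 0.267). Of 19 elongation factors, 9 were positive, with a median of −0.013. ELL3, of the ELL family of elongation factors, read 6.67 and 6.85 in YM155 arrays and 7.58 and 8.29 in untreated arrays (−1.18 ± 0.27 SE), and RTF1 of the PAF complex gave 0.37 ± 0.18 (SE).

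Of 16 Pol III initiation factors and their repressor MAF1, 9 had positive differences, with a median of 0.033. SNAPC1, a subunit of the complex that recognises small nuclear RNA promoters, read 8.78 and 8.70 in YM155 arrays and 8.87 and 10.04 in untreated arrays (−0.72 ± 0.40 SE), so that 1 untreated array set its size. SNAPC5 of the same complex gave −0.36 ± 0.20 (SE). Of 16 factors in the assembly and import list, which also held RPRD1A, RPRD1B and RPRD2, 11 had negative differences, with a median of −0.082. RPRD1A, which binds the tail of POLR2A, gave −0.43 ± 0.13 and the prefoldin subunit gene PFDN2 −0.37 ± 0.13 (SE). Of these 5 lists, 0 members passed the adjusted threshold by limma. At an unadjusted p under 0.05, where 5.23% of all genes were higher and 7.48% lower, 1 Pol I factor was higher (14.3%). Of the Pol II initiation factors 3 were higher (10.3%) and 2 lower (6.90%). Of the elongation factors 1 was lower (5.26%), of the assembly and import list 2 were lower (12.5%), and of the Pol III factors 0 passed.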

How the data were processed

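Total RNA from KYSE410 cells was measured on 4 Affymetrix 3' expression arrays, labelled from 200 ng of RNA per the labels' protocols. The authors deposited 1 intensity per probe set, made with RMA per the submitters' processing notes, whose version and settings the sources used here do not give. Deposited intensities ran from 2.42 to 15214, a linear scale, so log2 was taken. Array medians lay between 16.0 and 16.2. Depth does not apply to arrays, and their number limits the precision.

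Symbols came from the platform annotation. The 62 control probe sets were left out, and of the rest those with a mean log2 below the 40th percentile (3.32), which kept 32768. Each gene was given by its probe set of highest mean (14043 genes). A two-sided moderated test (limma 3.58.1, R 4.3.3), with group as its single term and 2 residual and 2.69 prior degrees of freedom, was run over genes and over probe sets, with Benjamini-Hochberg adjustment and a threshold of 0.05. The codes B1 and B2 in the titles of the YM155 arrays are not explained, and no label states a culture or batch, so p-values measure only how far these arrays scatter, and that scatter may be technical. With 2 against 2 arrays an exact permutation test of a single gene cannot go below 0.333. All RNA polymerase genes were named, and from each factor list the 2 largest absolute differences. Members and lists were chosen with earlier results of these data known. Replicate numbers were not treated as pairs (correlation of same-numbered arrays' deviations −0.033). No genome build is given for the probe sets, so no gene coordinates are printed. Promoter windows are RefSeq's.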

Additional observations from a re-analysis of the deposited data

How the results depend on the processing

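By limma, 0 genes passed the adjusted threshold under each setting that kept all 4 arrays: dropping the filter or raising it to the 60th percentile, averaging each gene's probe sets, leaving out those with _x_at or _s_at suffixes, repeating quantile normalization, median centring, and trended robust eBayes. In the analysis as reported, at an unadjusted p under 0.05, there were 734 higher and 1051 lower genes. With the replicate number as a block, 0 genes passed and the smallest adjusted p was 0.407. Leaving out 1 array at a time gave 0 to 1125 genes, the highest without untreated replicate 1 (604 higher, 521 lower). The Pol I median ran from 0.18 to 0.45 log2 over the arrays left out, and the Pol II median from 0.013 to 0.14, and both moved by more than the spread between replicates without untreated replicate 2. The median of the subunits common to all enzymes was 0.22 with only probe sets lacking the _x_at and _s_at suffixes, against −0.079, where POLR2K and POLR2L are read from their second probe sets and POLR2E has none. The Pol III median ran from −0.0063 to 0.26 over all these settings. Of the 32 genes, 9 changed sign without untreated replicate 1, 6 without untreated replicate 2, 2 without YM155 replicate 1 and 6 without YM155 replicate 2. Each other setting changed the sign of at most 2.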
